A study of Mus musculus with 6 samples.

Results

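Genes of the Ms4a family were followed in RNA sequencing data from M2c-polarized macrophages of mice with and without the soluble epoxide hydrolase (sEH). The members are the genes of the deposited count matrix that carry one of 8 symbols, *Ms4a4a*, *Ms4a4c*, *Ms4a6b*, *Ms4a6c*, *Ms4a6d*, *Ms4a7*, *Ms4a8a* and *Ms4a14*. All 8 were found among the 19309 genes of the matrix, and all 8 were among the 13785 genes that entered the test, those averaging above 5 counts per library. The other genes with an Ms4a symbol in the matrix, *Ms4a4b* and *Ms4a4d*, averaged fewer counts. *Ms4a1* and *Ms4a2* were not found in the matrix under these symbols.

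The study asked how the sEH, an enzyme that hydrolyses lipid epoxides and is encoded by *Ephx2*, affects macrophages that have been repolarized from an inflammatory to a resolving state. Bone marrow monocytes came from C57BL/6N wild-type mice and from sEH-/- mice with a constitutive deletion of *Ephx2* in all tissues, matched for age (8 to 10 weeks) and strain. In both genotypes M-CSF with GM-CSF, each at 15 ng/mL, was given for 7 days, followed by LPS (10 ng/mL) with IFN-γ (1 ng/mL) and last by TGF-β1 (10 ng/mL). The sequencing compared 3 sEH-/- with 3 wild-type mice, with 1 library per mouse. The inflammatory step took 24 h by the labels or 12 h by the methods, and TGF-β1 was on for 48 h by the labels or 24 or 48 h by the methods. All libraries therefore come from treated cells, and no untreated cells were sequenced. Library totals were 5818444, 5013265 and 4400197 counts for sEH-/- and 4632688, 6096440 and 5448287 for wild-type. *Ephx2* had 4, 2 and 1 counts in the sEH-/- and 26, 49 and 57 counts in the wild-type libraries, as the labels say.

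The Ms4a genes encode small proteins that cross the cell membrane several times, and most lie side by side in a single cluster. The best known are CD20 on B cells and the β chain of the high-affinity IgE receptor on mast cells, whereas several of the other members are made by monocytes and macrophages. Members of the family sit next to other receptors in the membrane and alter their signaling, and in macrophages they have been tied to the β-glucan receptor dectin-1, to the phagocyte receptor Trem2 and to the inflammasome.

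All 8 members had a log2 fold change above 0, with sEH-/- set over wild-type, and their median was 0.71, beside a median of −0.00092 over all tested genes. The value of *Ms4a8a* turned negative without sEH-/- replicate 1. In 6 of the 8 members every sEH-/- library lay above every wild-type library, which held for 11.8% of all tested genes. *Ms4a14*, *Ms4a6b* and *Ms4a7* were called higher in sEH-/- macrophages, that is, with an edgeR quasi-likelihood p that stayed below 0.05 after Benjamini-Hochberg adjustment over all tested genes, and a difference above 1.5-fold. These 3 calls in 8 members stand beside 1.51% of all tested genes called higher and 2.61% called in either direction. No member was called lower. In bulk RNA, a different number of cells that make a transcript and a different amount of it per cell cannot be told apart.

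The number of calls depended on single libraries. No member was called when wild-type replicate 2 or wild-type replicate 3 was left out, although 6 members had an unadjusted p below 0.05 in edgeR in each of these fits. Without sEH-/- replicate 2, *Ms4a14* was the 1 member called, and without wild-type replicate 1 there were 5. When the log of each library total entered the model, *Ms4a14* alone was called. When edgeR tested against a 1.5-fold difference instead of no difference, 0 members were called and 2 had an unadjusted p below 0.05, and 10 of all tested genes were called. *BE692007*, *Ly6c2* and *Plac8*, described below, lost their calls there too. DESeq2 called 5 members with all 6 libraries, adding *Ms4a4a* and *Ms4a4c*, and 473 of all tested genes (3.43%). The number of calls over all tested genes moved with the same libraries, from 360 to 25 without wild-type replicate 2, to 6 without wild-type replicate 3 and to 96 without sEH-/- replicate 2. It was 625 without wild-type replicate 1, 518 without sEH-/- replicate 1 and 570 without sEH-/- replicate 3.

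**Figure D1:**
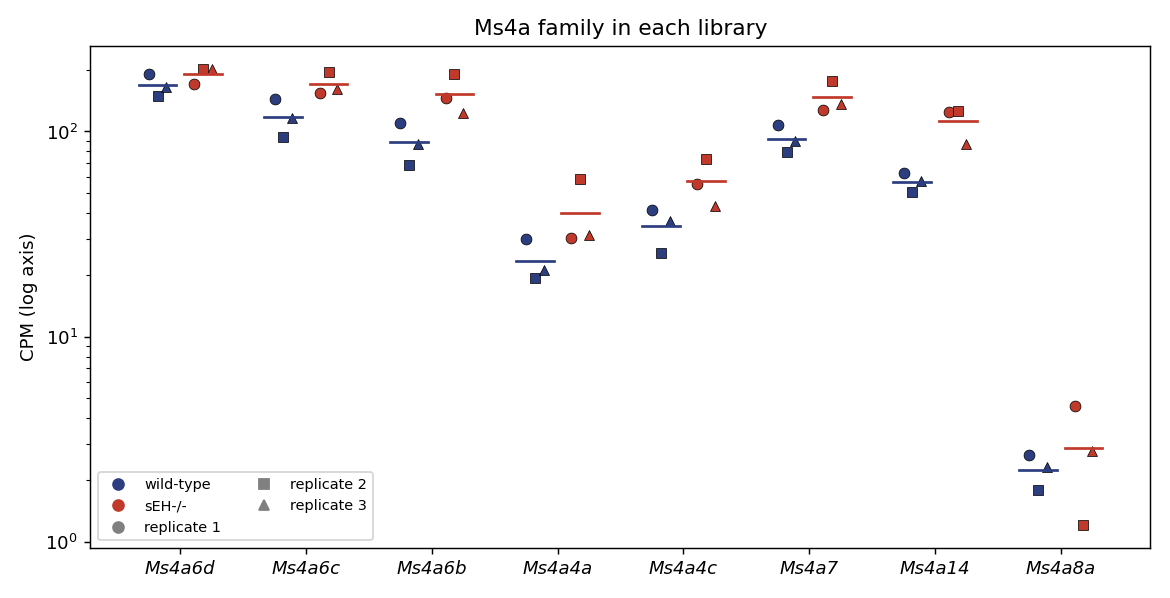
Counts scaled to library size (CPM, log axis) of the 8 Ms4a members in each library. Points are single mice, their shape gives the replicate number and horizontal lines are the means of 3 mice. In all members but *Ms4a6d* and *Ms4a8a*, the lowest sEH-/- point lies above the highest wild-type point.

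The Ms4a6 genes are close relatives in sequence. *Ms4a6b*, a member found on lymphoid and myeloid cells, had 145, 190 and 123 CPM in sEH-/- mice, against 111, 69.0 and 87.1 CPM in wild-type mice (replicates 1 to 3). Each sEH-/- library was above each wild-type library, and the gap between the lowest sEH-/- and the highest wild-type library was small beside the spread within a genotype. The means were 153 ± 34.5 and 88.9 ± 20.9 CPM (SD, n = 3 mice each). The log2 fold change was 0.79 (a fitted fold of 1.73, SE 0.18, edgeR adjusted p = 0.041). It lost its call when sEH-/- replicate 2 (edgeR adjusted p = 0.11), wild-type replicate 2 (0.17) or wild-type replicate 3 (0.17) was left out, and with the library total in the model (0.074).

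*Ms4a6c* was at 154, 194 and 162 CPM in sEH-/- mice, against 144, 94.1 and 117 CPM in wild-type mice. The genotypes did not overlap, yet wild-type replicate 1 came close to sEH-/- replicate 1. The log2 fold change of 0.53 (SE 0.14, edgeR adjusted p = 0.059) missed both limits of a call. *Ms4a6c* was called without sEH-/- replicate 1 and without wild-type replicate 1, with log2 fold changes of 0.60 and 0.69. It was also called (0.65) when counts were adjusted for a limit of 1 per exonic base, an alternative chosen after seeing the data.

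*Ms4a6d*, described as a partner of the receptor Vsig4 in restraining the inflammasome, had 171, 202 and 202 CPM in sEH-/- mice, against 191, 148 and 164 CPM in wild-type mice. Here the genotypes overlapped, as sEH-/- replicate 1 was below wild-type replicate 1. The means were 192 ± 17.9 and 168 ± 21.8 CPM (SD, n = 3 mice each), and the log2 fold change of 0.19 (SE 0.10, edgeR adjusted p = 0.30) was not called in any of 17 alternatives. *Ms4a6d* carried 0.53 counts per exonic base, the most of the 8 members. The authors removed duplicate reads, and genes with that many counts followed the library total less closely. With counts adjusted for a limit of 1 per exonic base, an alternative chosen after seeing the data, *Ms4a6d* was at 0.25 (edgeR adjusted p = 0.18) and still not called.

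The Ms4a6 counts carry an uncertainty of their own, since the authors left out reads that align to several places. Of the words of 31 bases in the annotated transcripts of *Ms4a6c*, 442 of 2020 (21.9%) also occur in transcripts of another gene, most often *Ms4a6b*. The corresponding share was 8.11% for *Ms4a6d*, 7.84% for *Ms4a6b* and 17.1% for *Ms4a4c*, the last mostly with *Ms4a4b*. It was 1.22% for *Ms4a7* and 0.57% for *Ms4a8a*, and no word of *Ms4a4a* or *Ms4a14* was shared. Levels of the members with shared words may be too low, in both genotypes alike.

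*Ms4a4a* encodes a macrophage surface protein that associates with dectin-1. Its values were 30.1, 58.5 and 31.3 CPM in sEH-/- mice, against 29.9, 19.3 and 21.2 CPM in wild-type mice. A single library, sEH-/- replicate 2, stood far above the others, and the lowest sEH-/- and the highest wild-type library were nearly equal. Its log2 fold change was 0.78 (SE 0.26, edgeR adjusted p = 0.10). Without sEH-/- replicate 2 it was 0.42, and DESeq2 gave 0.78 with an adjusted p of 0.028, within a range of 0.028 to 0.35 over 17 alternatives and 1.0 in the test against a 1.5-fold difference.

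*Ms4a4c*, which interferon induces in mouse leukocytes, had 55.3, 73.4 and 43.4 CPM in sEH-/- mice, against 41.6, 25.5 and 36.6 CPM in wild-type mice. The genotypes did not overlap, with sEH-/- replicate 3 just above wild-type replicate 1. At a log2 fold change of 0.75 (SE 0.20, edgeR adjusted p = 0.064), *Ms4a4c* was not called. It was called with DESeq2 (adjusted p = 0.0076), with no filter on low counts, without sEH-/- replicate 3 and without wild-type replicate 1.

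The remaining Ms4a4 genes were close to the limit of detection. *Ms4a4b*, a gene of T cells, had 7, 7 and 4 counts in sEH-/- mice, against 0, 2 and 0 counts in wild-type mice. *Ms4a4d* had 4, 3 and 0 counts in sEH-/- mice, against 1, 3 and 2 counts in wild-type mice. Both averaged below the 5 counts asked for. In the fit with no filter, edgeR gave log2 fold changes of 3.05 (adjusted p = 0.057) for *Ms4a4b* and 0.30 (adjusted p = 0.89) for *Ms4a4d*, and neither was called. *Ms4a4b* shares sequence with *Ms4a4c*, and its few counts were higher in each sEH-/- library.

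*Ms4a7* is a marker of mature macrophages, among them those at the borders of the brain. It was at 127, 176 and 136 CPM in sEH-/- mice, against 108, 79.0 and 89.6 CPM in wild-type mice. Again the genotypes did not overlap, and sEH-/- replicate 2 was highest. The means were 147 ± 25.9 and 92.2 ± 14.6 CPM (SD, n = 3 mice each), with a log2 fold change of 0.68 (SE 0.14, edgeR adjusted p = 0.030). The call was lost when sEH-/- replicate 2 (edgeR adjusted p = 0.074), wild-type replicate 2 (0.15) or wild-type replicate 3 (0.14) was left out, and with the library total in the model (0.0515).

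*Ms4a14* showed the largest log2 fold change of the 8 members. Its values were 125, 125 and 87.0 CPM in sEH-/- mice, against 62.7, 50.8 and 57.5 CPM in wild-type mice. The wild-type libraries lay close together, and even sEH-/- replicate 3, the lowest of its genotype, was clearly above them. The means were 112 ± 21.98 and 57.0 ± 5.95 CPM (SD, n = 3 mice each). The log2 fold change was 0.99 (a fitted fold of 1.99, SE 0.14, edgeR adjusted p = 0.011) and lay between 0.91 and 1.15 with any 1 library left out. It was called in 15 of 17 alternatives, which leave out the test against the fold change limit (edgeR adjusted p = 0.22), and missed the threshold when wild-type replicate 2 (edgeR adjusted p = 0.058) or wild-type replicate 3 (0.093) was left out. The study drew *Ms4a14* among its top genes from these same libraries, so its direction here is not independent evidence.

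*Ms4a8a*, which has been described in macrophages treated with TGF-β and glucocorticoid, was barely detected. It had 27, 6 and 12 counts in sEH-/- mice, against 12, 11 and 13 counts in wild-type mice. The sEH-/- libraries held both the highest and the lowest value, so the genotypes overlapped. In *Ms4a8a* the log2 fold change of 0.39 (SE 0.45, edgeR adjusted p = 0.65) was −0.18 without sEH-/- replicate 1 and 0.77 without sEH-/- replicate 2. No difference was detectable at this depth.

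**Figure D2:**
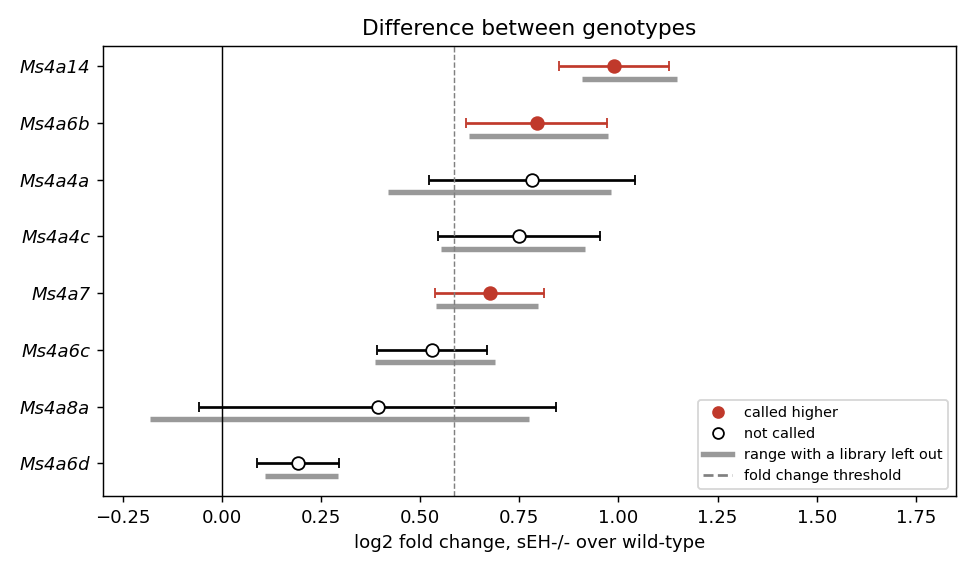
Log2 fold change of each Ms4a member, sEH-/- over wild-type, with its SE as bars, and the range of values with 1 library left out as grey lines. Filled points are called higher and the dashed line marks 1.5-fold. *Ms4a14* lies highest at 0.99 and *Ms4a6d* lowest at 0.19, and the grey line of *Ms4a8a* crosses 0.

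Levels were compared between members as CPM per kb of exonic length. In wild-type macrophages *Ms4a6d* had the highest length-scaled level, 96.7 ± 12.5 CPM per kb (SD, n = 3 mice), above 99.4% of all tested genes. *Ms4a6c* followed with 57.7 ± 12.1 CPM per kb, and *Ms4a4a* with 28.1 ± 6.77 CPM per kb. Neither *Ms4a6d* and *Ms4a6c* nor *Ms4a6c* and *Ms4a4a* overlapped in the wild-type libraries, so these steps exceeded the spread between mice. Next came *Ms4a7* (20.7 ± 3.29 CPM per kb), *Ms4a6b* (19.8 ± 4.65 CPM per kb) and *Ms4a4c* (19.7 ± 4.70 CPM per kb), whose ranges overlapped. *Ms4a14* was at 14.02 ± 1.47 CPM per kb, a range that also overlapped that of *Ms4a4c*. *Ms4a8a* was lowest at 1.25 ± 0.24 CPM per kb, below all other members in all 6 libraries. The order was the same with the length of the longest transcript in place of all exons.

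In sEH-/- macrophages the length-scaled levels ran from 110.4 ± 10.3 CPM per kb (SD, n = 3 mice) for *Ms4a6d* and 82.9 ± 10.3 for *Ms4a6c* to 1.599 ± 0.95 for *Ms4a8a*. *Ms4a14* was at 27.6 ± 5.41 CPM per kb, still below *Ms4a4c* in each of the 6 libraries.

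Added up, the 8 members had 812, 1021 and 787 CPM in sEH-/- mice, against 690, 488 and 575 CPM in wild-type mice. The sums did not overlap, and their means of 874 ± 128 and 584 ± 102 CPM (SD, n = 3 mice each) differed 1.49-fold. The share of each member in the sum was also read. *Ms4a6d* held 21, 19.8 and 25.7% of the Ms4a counts in sEH-/- mice, against 27.7, 30.4 and 28.5% in wild-type mice. Its share was lower in every sEH-/- library, with a mean difference of −6.71 percentage points (sEH-/- minus wild-type). *Ms4a14* held 15.4, 12.3 and 11% in sEH-/- mice, against 9.08, 10.4 and 10% in wild-type mice, and its share was higher in every sEH-/- library, by 3.06 percentage points on average. That difference was 1.83 points without sEH-/- replicate 1 and 2.03 points with counts divided by exonic length. For both, the 2-sided exact permutation test gave p = 0.1, unadjusted, the smallest value that 3 mice against 3 allow. The shares of the other 6 members overlapped between the genotypes. When counts were divided by exonic length first, the shares of *Ms4a6b* (9.16 and 7.63%) and *Ms4a7* (8.88 and 8.04%, sEH-/- and wild-type means) did not overlap either. *Ms4a6d* carries the most counts per exonic base, and whether its share also depends on the library total was not tested.

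**Figure D3:**
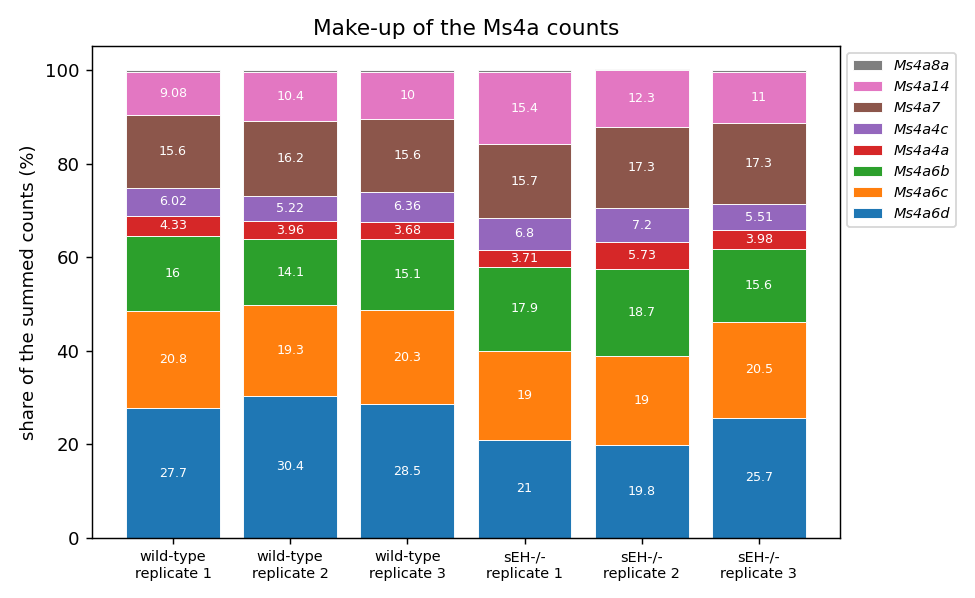
Share of the summed Ms4a counts held by each member in each library, in percent, with the value printed where it is above 2.5%. Each bar adds to 100% and stands for 1 mouse. The share of *Ms4a6d* is 27.7 to 30.4% in wild-type and 19.8 to 25.7% in sEH-/- libraries.

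Within a genotype the members varied together. Wild-type replicate 1 had the highest and wild-type replicate 2 the lowest CPM in 8 of 8 members, an order found in 21.8% of all tested genes. The order was found in 28.5% of tested genes with 0.1 to 0.2 counts per exonic base, the range of 5 members. Among the sEH-/- libraries, replicate 2 was highest in 6 of 8 members, whereas it was highest in 30.6% of all tested genes. The wild-type order is the reverse of the library totals. From wild-type replicate 1 to replicate 2 the total was 1.32 times as large, while the ratio of counts lay between 0.83 (*Ms4a4c*) and 1.10 (*Ms4a14*) in the members. Genes with 0.1 to 0.2 counts per exonic base, the range of *Ms4a4a*, *Ms4a4c*, *Ms4a6b*, *Ms4a7* and *Ms4a14*, had a median ratio of 1.32, and genes above 0.5, the range of *Ms4a6d*, one of 1.10. So these 5 members lay below genes with a like number of counts per base, and *Ms4a6d* was near them. *Ms4a6c* (0.89) and *Ms4a8a* (0.92) also lay below the medians of their ranges, 1.17 and 1.56. In sEH-/- replicate 1 over replicate 3, with totals again 1.32-fold apart, the ratios of the same 5 members ran from 1.27 to 1.94. The part of depth in the order of the libraries was not tested further, and the fit with the library total in the model kept the call of *Ms4a14* alone. Its log2 fold changes of 1.01 for *Ms4a14*, 0.76 for *Ms4a6b* and 0.62 for *Ms4a7* stayed near those without the total.

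**Figure D4:**
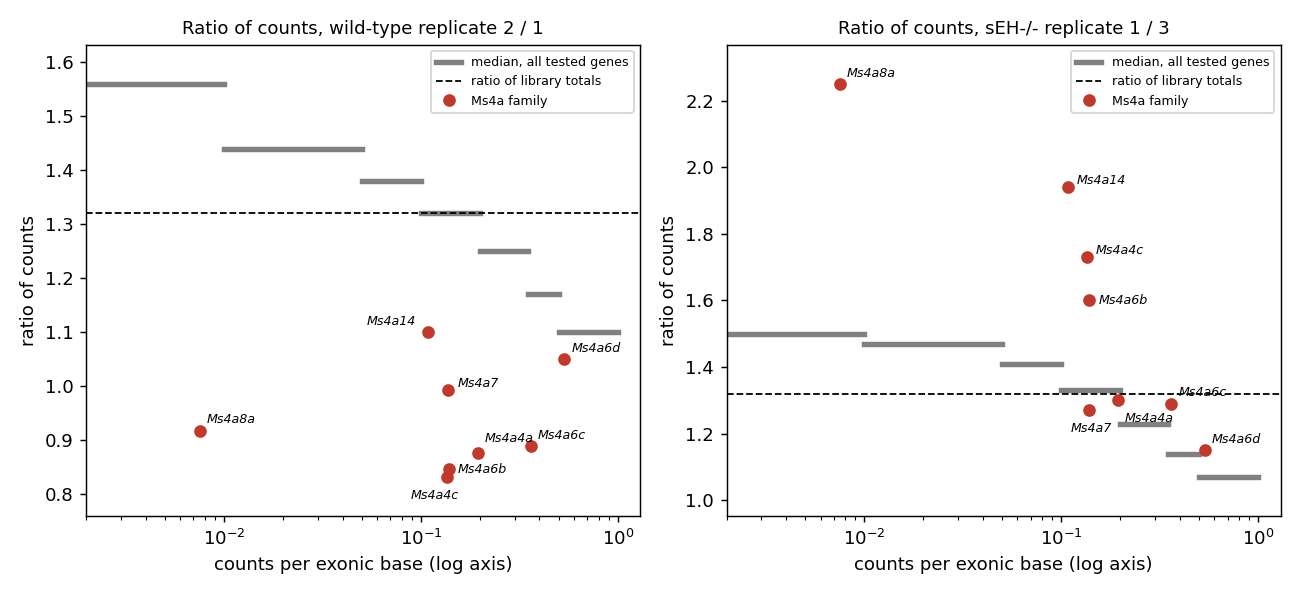
Ratio of counts between the deepest and the shallowest library of each genotype against counts per exonic base (log axis). Grey lines are medians over all tested genes in a range of counts per base, dashed lines are the ratios of the library totals (1.32 in both), and points are the Ms4a members. In wild-type libraries all 8 points lie below the dashed line.

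Over the 6 libraries, the log2 CPM values of the 7 members averaging 20 counts or more correlated with Pearson r from 0.57 (*Ms4a6d* and *Ms4a14*) to 0.99 (*Ms4a4c* and *Ms4a6b*) in 21 pairs. These values describe 6 libraries that share the difference between genotypes and between depths. Without *Ms4a6d*, the lowest of 15 pairs was 0.80. The 3 genes most like each member were taken from 10277 genes averaging 50 counts or more. They included *Wipf1* and *Daxx* for *Ms4a6b*, and were *Ifi203*, *Clec4a1* and *Coro1a* for *Ms4a6c*, and *Themis2*, *Snx1* and *C3ar1* for *Ms4a6d*. They were *Stk38*, *Otulin* and *Sptlc2* for *Ms4a4a*, and *Aldh16a1*, *Zfp932* and *Akr1e1* for *Ms4a4c*. *Ms4a7* was most like *Sla*, *Capn1* and *Pid1*, and *Ms4a14* most like *Sh3bp5*, *Pgghg* and *Ptger1*. Their r lay between 0.995 and 0.999 (n = 6 libraries), as picked from the top of many genes. These genes were picked for a pattern that already holds the difference between the genotypes, so the direction of their fold changes adds nothing and is not given.

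The cluster spans 537 kb of chromosome 19 (mm10, chr19:11067471-11604849), from *Ms4a8a* to *Ms4a6d*. In the order of their starts, *Ms4a8a*, *Ms4a14* and *Ms4a7* lie on the minus strand, *Ms4a4a*, *Ms4a4c*, *Ms4a6c* and *Ms4a6b* on the plus strand, and *Ms4a6d* on the minus strand. Of 15 tested genes within 500 kb on either side, 0 were called by edgeR and 0 by DESeq2 or limma-voom, where 2.61% of all tested genes were called by edgeR. An unadjusted p below 0.05 in edgeR was found for 6 of them, or 40%, beside 23.4% of all tested genes. Their log2 fold changes ran from −0.32 (*Mrpl16*) to 0.43 (*Tmem132a*), with a median of −0.022, beside the median of 0.71 in the Ms4a members. *Tmem132a* reached an adjusted p of 0.047 in edgeR but not the fold change limit.

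Of the 5 other tested genes inside the cluster, 1 was called, beside 2.61% of all tested genes, and 2 (40%) had an unadjusted p below 0.05 in edgeR, beside 23.4%. The called gene was *BE692007*, a processed transcript that overlaps *Ms4a6c* by 12027 bases on the opposite strand, and the authors counted reads by strand. It had 93, 102 and 65 counts in sEH-/- mice, against 46, 30 and 47 counts in wild-type mice. The genotypes did not overlap, and the log2 fold change of 1.16 (SE 0.26, edgeR adjusted p = 0.041) was above that of *Ms4a6c* itself. It was lost when sEH-/- replicate 2 or wild-type replicate 2 or 3 was left out, after thinning to the smallest library, with a replicate block and with the library total in the model (edgeR adjusted p up to 0.16). *Gm38275*, next to *Ms4a6d*, had 22, 22 and 16 counts in sEH-/- mice, against 9, 5 and 12 counts in wild-type mice and was not called (edgeR log2 fold change 1.29 with SE 0.38 and adjusted p = 0.074). *Gm8369*, between *Ms4a6c* and *Ms4a6b*, was at 0.39 (SE 0.34), and the pseudogenes *Gm5511* and *Gm6501* were at 0.18 (SE 0.40) and −0.32 (SE 0.46).

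**Figure D5:**
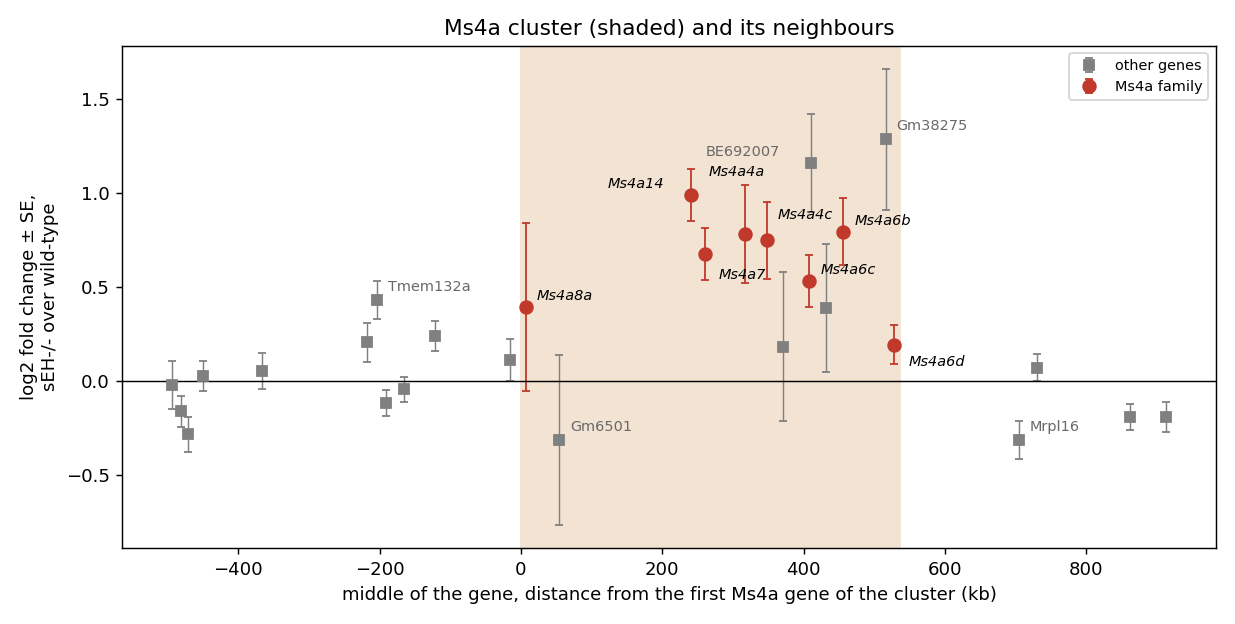
Log2 fold change with SE, sEH-/- over wild-type, of the Ms4a members and of the other tested genes within 500 kb, against the distance of each gene's middle from the first Ms4a gene (kb). The shaded stretch is the 537 kb cluster. Genes outside it lie between −0.32 and 0.43, and the members between 0.19 and 0.99.

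The windows just before the transcription start are shown for the 3 called members and for *Ms4a6c*, as *Ms4a6c* shares the most sequence with *Ms4a6b*. *Ms4a4a* and *Ms4a4c* varied with these members as well and are not shown. RefSeq (GRCm38.p6) gave 8 windows for 7 members, and *Ms4a6d* was missing. Each line holds the 250 bases before a start, in the direction of transcription. Capitals mark matches on either strand to GAAANNGAA (an interferon response type motif), TTCNNNGAA (Stat), GAGGAAGT (PU.1), TGANTCA (AP-1) and GTCTAGAC or CAGAC (Smad). The windows lie at chr19:11518309-11518558 for *Ms4a6b*, chr19:11469118-11469367 for *Ms4a6c*, chr19:11336147-11336396 for *Ms4a7* (the upstream of its starts) and chr19:11314455-11314704 for *Ms4a14*, the first 2 on the plus strand and the others on the minus strand.
Ms4a6b: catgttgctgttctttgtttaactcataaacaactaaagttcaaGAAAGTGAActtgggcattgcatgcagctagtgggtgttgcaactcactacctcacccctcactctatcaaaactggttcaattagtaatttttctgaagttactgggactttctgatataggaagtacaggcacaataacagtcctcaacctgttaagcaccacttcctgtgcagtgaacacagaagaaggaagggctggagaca
Ms4a6c: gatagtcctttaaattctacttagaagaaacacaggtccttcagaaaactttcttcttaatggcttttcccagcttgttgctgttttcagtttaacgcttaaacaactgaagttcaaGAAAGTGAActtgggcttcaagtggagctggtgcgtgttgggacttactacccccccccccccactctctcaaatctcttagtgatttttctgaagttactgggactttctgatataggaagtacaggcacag
Ms4a7: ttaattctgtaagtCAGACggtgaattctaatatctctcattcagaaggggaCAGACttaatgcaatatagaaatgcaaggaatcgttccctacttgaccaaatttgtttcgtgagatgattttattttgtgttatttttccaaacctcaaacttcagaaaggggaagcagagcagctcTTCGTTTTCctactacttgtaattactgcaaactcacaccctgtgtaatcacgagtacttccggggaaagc
Ms4a14: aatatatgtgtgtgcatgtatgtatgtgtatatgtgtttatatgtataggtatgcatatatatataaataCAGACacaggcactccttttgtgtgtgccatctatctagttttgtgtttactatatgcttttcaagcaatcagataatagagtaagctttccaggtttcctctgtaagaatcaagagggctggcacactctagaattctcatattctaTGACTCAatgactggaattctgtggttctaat

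*Ms4a6b* and *Ms4a6c* share a run of 48 bases in these windows. Both hold the match gaaagtgaa to GAAANNGAA, which begins 206 bases before the start in *Ms4a6b* and 133 bases before it in *Ms4a6c*. Of the 8 windows of the family, 4 hold GAAANNGAA, the other 2 being those of *Ms4a7*, where 7.13% of all 32851 windows do. TGANTCA is in 3 of the 8 windows, 1 each of *Ms4a14*, *Ms4a7* and *Ms4a8a*, and in 6.75% of all windows. In *Ms4a14* it begins 32 bases before the start. CAGAC is in 3 of the 8 and in 42.2% of all windows. TTCNNNGAA (7.02% of all windows), GAGGAAGT (2.44%) and GTCTAGAC (0.167%) were in none of the 8. The windows of the family hold 30.4 to 47.2% G and C, below the median of 52.4% over all windows. Among the 10124 windows within that range, a comparison chosen after seeing the data, GAAANNGAA was in 10.6%, TGANTCA in 10.3% and CAGAC in 40.4%. No 2 matches overlapped, and no binding was measured.

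Described partners of the family were given by 13 tested genes of a list of 15. Of these, 0 were called by edgeR, 1 (*Tnfrsf18*, lower) by DESeq2 and 0 by limma-voom, and 3 (23.1%) had an unadjusted p below 0.05 in edgeR, as did 23.4% of all tested genes. Over all tested genes edgeR called 2.61%. Their median log2 fold change was 0.13. *Clec7a*, which encodes dectin-1, the partner of *Ms4a4a*, was at 0.13 (SE 0.12), and the kinase gene *Syk* at −0.027 (SE 0.091). *Trem2* was at 0.17 (SE 0.10), *Adam10* and *Adam17*, which encode proteases that cut Trem2, at 0.084 (SE 0.085) and 0.30 (SE 0.099), and the Fc receptor gene *Fcgr2b* at 0.089 (SE 0.15). These 6 are the most abundant of the list, and *Vsig4* and *Tnfrsf18* were picked after their values were seen. *Vsig4*, described with *Ms4a6d*, had only 8, 14 and 20 counts in sEH-/- mice, against 8, 7 and 5 counts in wild-type mice. *Tnfrsf18*, which encodes a receptor described with the *Ms4a4b* protein, had 19, 3 and 6 counts in sEH-/- mice, against 17, 49 and 42 counts in wild-type mice (edgeR log2 fold change −1.82 with SE 0.48 and adjusted p = 0.060, 0.020 to 0.24 over 16 alternatives without the test against a 1.5-fold difference), and was called with no filter, without wild-type replicate 1 and without sEH-/- replicate 1, where its log2 fold change was −2.71. The related genes *Tmem176a* and *Tmem176b* had at most 11 counts in any library.

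Of 13 regulators of macrophage genes, 0 were called by edgeR, DESeq2 or limma-voom, and 1 (7.69%) had an unadjusted p below 0.05 in edgeR, beside the 23.4% of all tested genes. The median log2 fold change was 0.063. The 6 most abundant were *Irf8* (−0.0063, SE 0.099), *Stat6* (0.031, SE 0.072), *Stat3* (0.059, SE 0.073), *Irf7* (0.18, SE 0.11), *Cebpa* (−0.094, SE 0.071) and *Irf1* (0.090, SE 0.095).

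Markers of cell types were read beside the family. All 8 macrophage markers were tested and 0 were called by edgeR, DESeq2 or limma-voom, with 2 (25%) at an unadjusted p below 0.05 in edgeR, beside 23.4% of all tested genes. Their summed level was 2059, 2501 and 2557 CPM in sEH-/- mice, against 2337, 1853 and 1959 CPM in wild-type mice, with *Csf1r* the most abundant. All 8 had a log2 fold change above 0, as the Ms4a members did, with a median of 0.16 and the largest value in *Fcgr1* (0.45, SE 0.12, edgeR adjusted p = 0.065), which did not overlap between the genotypes. The sum overlapped, and in wild-type libraries it was again highest in replicate 1 and lowest in replicate 2.

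Monocyte markers differed in the same direction as the Ms4a members. The 5 markers summed to 54.2, 56.1 and 58.0 CPM in sEH-/- mice, against 21.98, 17.2 and 23.3 CPM in wild-type mice, with *Ly6c2* the most abundant and none at 0 in all libraries. Of 3 tested, *Ly6c2* and *Plac8* were called higher, beside 1.51% of all tested genes, and all 3 had an unadjusted p below 0.05 in edgeR, beside 23.4%. *Ly6c2* had 34.2, 45.6 and 47.8 CPM in sEH-/- mice, against 20.01, 14.8 and 19.2 CPM in wild-type mice, with no overlap. Its log2 fold change was 1.24 (SE 0.17, edgeR adjusted p = 0.011), and it lost its call without wild-type replicate 3 (0.084). *Plac8* had 14.5, 7.47 and 5.80 CPM in sEH-/- mice, against 0.88, 1.62 and 2.87 CPM in wild-type mice. Its log2 fold change was 2.35 (SE 0.45, edgeR adjusted p = 0.027), and it lost its call without wild-type replicate 2 (0.15) or 3 (0.11). *Ccr2* and *Cd177* had at most 15 counts in any library. The part of monocyte-like cells in the Ms4a difference was not tested.

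Markers of other cell types were read in the same way. Neutrophil markers summed to 27.7, 31.3 and 29.0 CPM in sEH-/- mice, against 17.6, 19.3 and 20.97 CPM in wild-type mice, nearly all of it *S100a8*, which was not called (edgeR log2 fold change 0.54 with SE 0.14 and adjusted p = 0.057). The neutrophil sums too did not overlap between the genotypes, but they rest on *S100a8*. *S100a9*, *Elane*, *Camp*, *Ltf* and *Cxcr2* had at most 10 counts in any library. The part of neutrophils in the Ms4a difference was not tested. Dendritic cell markers, led by *Itgax*, which macrophages also express, summed to 209.6, 306 and 444 CPM in sEH-/- mice, against 379, 379 and 333 CPM in wild-type mice, and *Cd209a* was at 0. The 5 tested all had a log2 fold change below 0, opposite to the Ms4a members, with a median of −0.31, and *Batf3* was lower in every sEH-/- library. Of these 5, 0 were called by edgeR, DESeq2 or limma-voom, and 2 (40%) had an unadjusted p below 0.05 in edgeR, beside 23.4% of all tested genes. Several Ms4a genes are known in lymphocytes. Of the lists, 3 of 6 B cell markers and 1 of 8 T and NK cell markers, *Klrb1c*, were found in the matrix. The B cell markers summed to at most 1.01 CPM and *Klrb1c* reached at most 0.81 CPM in any library. These markers were thus at the limit of detection, and the other T and NK cell markers could not be read. Mast cell and basophil markers summed to between 3.96 and 10.7 CPM, nearly all *Gata2*, and the erythroid gene *Klf1* was at most at 1.97 CPM. Stromal markers, led by *Col1a2*, ran from 9.45 to 57.3 CPM, with the highest sum in wild-type replicate 2, the lowest of the wild-type libraries in all Ms4a members. Of 5 tested, 0 were called by edgeR, DESeq2 or limma-voom, and 1 (20%) had an unadjusted p below 0.05 in edgeR, beside 23.4% of all tested genes. Their part in that order was not tested. The sex gene *Xist* did not differ between the genotypes (log2 fold change −0.042, SE 0.20).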

How the data were processed

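The authors trimmed reads and aligned them to mm10. Duplicates and reads that were multi-mapping, mitochondrial or ribosomal were dropped, as were those over several genes, and the rest was counted over exons by strand. The values used here are these deposited counts, not normalized. Their methods name STAR, Picard and featureCounts. The submitters' processing notes give STAR 2.7.7a, Picard 2.21.7, featureCounts 1.6.5 and Trimmomatic 0.39, and the methods give other versions of the first 3. The labels name a kit for mRNA libraries, the methods one for total RNA.

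The test was that of edgeR 4.0.16 in R 4.3.3 (TMM, glmQLFit, glmQLFTest, no covariate), where the study used DESeq2. Genes with a mean count above 5 were tested, and calls needed more than a 1.5-fold difference and an adjusted p below 0.05. The code was tested on simulated data. CPM use TMM-scaled library sizes, and SE is the log2 fold change over the square root of F. Exonic lengths and transcripts came from GENCODE M21. Shares were compared with an exact 2-sided permutation test (scipy 1.17.1), and neither their p adjusted over the members nor a p for the summed CPM is given. Motifs were searched in the 250 bases per promoter that the reference table holds, where 300 had been planned. Between libraries of 1 genotype, the chi-square of counts per degree of freedom was at least 2.28, so they differed by more than the sampling of reads. This value alone cannot show that each came from a separate mouse. Library totals lay between 4400197 and 6096440 counts.

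The members and lists were chosen with earlier results of these data known. Named genes are the 8 members, other Ms4a rows, *Ephx2*, the neighbours within 500 kb, of each list the called genes and up to 6 further tested ones with the highest mean count, and the 3 genes most like each member with a mean of at least 20 counts. The lists are partners, relatives, regulators and markers of macrophages, monocytes, neutrophils, dendritic cells, B cells, T and NK cells, mast cells and basophils, erythroid cells, stromal cells and sex. *Tnfrsf18* and *Vsig4*, and genes of the marker lists with few counts, were picked after their values were seen. Alternatives were DESeq2 1.42.0, limma-voom 3.58.1, other normalizations, filters and thresholds, thinning, the library total as a covariate, a replicate block and leaving out each library.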

Additional observations from a re-analysis of the deposited data

How the results depend on the processing

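The number of Ms4a members called (3) was 5 with DESeq2, 1 with the library total as a covariate and 0 in a test against the fold change threshold (2 with an unadjusted p below 0.05 in that edgeR test), and ranged from 0 to 5 with 1 library left out. It was 3 or 4 in the other alternatives, including a ceiling of 1 count per exonic base, chosen after seeing the data. Over all tested genes the number (360) was 171 with the library total as a covariate, 10 in the test against the threshold and 553 by adjusted p alone, and ranged from 6 to 625 with 1 library left out. Fewer samples enter the last fits, and the cause of the other changes was not tested. Libraries with the same replicate number did not deviate together (correlations −0.10, −0.295 and −0.042). With 3 mice a genotype these values cannot tell whether the numbers pair the samples. With the replicate block 234 genes and 3 members were called. *Ephx2* was called in 16 of 16 alternatives. The log2 fold change of *Ms4a8a* turned to −0.18 without sEH-/- replicate 1 and was 0.77 without sEH-/- replicate 2, and no other member's changed sign in 17 alternatives. With 1 library left out, the difference in share, sEH-/- minus wild-type, ranged from −0.149 to 0.864 percentage points for *Ms4a4a* (negative without sEH-/- replicate 2) and from −0.148 to 0.0765 for *Ms4a8a* (positive without sEH-/- replicate 2), and from 1.83 to 3.98 for *Ms4a14*. That of *Ms4a6c* turned from −0.641 to 0.202 with counts per exonic length and ranged from −1.15 (without sEH-/- replicate 3) to −0.309 (without wild-type replicate 1). The summed CPM of the members was higher in sEH-/- libraries in every alternative run. With 3 mice a genotype and totals of 4400197 counts or more, the counts of *Ms4a8a*, *Ms4a4b* and *Ms4a4d* are few. With the ceiling of 1 count per exonic base, *Ms4a6d* was at 0.25 and not called.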
